A study of Homo sapiens with 8 samples.

Results

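The genes described here encode the linker histone H1 and the core histones H2A, H2B, H3 and H4, most of which lie in clusters on chromosomes 6 and 1. They were chosen by gene name, as every symbol that begins with H1-, H2AC, H2BC, H3C or H4C followed by a digit, and each was read at the probe set with a single symbol that had the highest mean over the 8 arrays. This gave 50 of the 19775 genes tested. Of the 50, 9 encode H1, 8 encode H2A, 14 encode H2B, 7 encode H3 and 8 encode H4, and 4 are not protein-coding. RNA was measured on Affymetrix arrays in 2 human breast cancer lines, T47D (luminal, hormone receptor-positive) and MDA-MB-231 (triple-negative, with mesenchymal features). Each line carried a lentiviral hairpin against XBP1 (shXBP1) or a control hairpin (shCtrl), which gives 4 groups of 2 arrays: T47D shXBP1, T47D shCtrl, MDA-MB-231 shXBP1 and MDA-MB-231 shCtrl. All 8 samples, the controls included, were kept under puromycin after infection and then for 24 h in medium without glucose at 0.1% O2, so no group shows the genes in oxygen and glucose. XBP1 is a transcription factor that acts in the unfolded protein response. The labels call the replicates biological but do not say whether they were separate infections, and the sequence and number of the hairpins are not given in the sources used here, so the p-values reflect only how far these samples scatter, which may be technical.

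Core histones form the protein spool around which DNA is wrapped, and H1 binds where the DNA enters and leaves it. Most of these genes are replication-dependent: they have no introns, are transcribed mainly in S phase, when new DNA has to be packaged, and give mRNAs that end in a conserved stem-loop bound by SLBP in place of a poly(A) tail. Standard Affymetrix labelling primes on poly(A), so it reads such mRNAs only in so far as they carry a tail, and tailed forms are known in differentiated cells and cancer lines. The copies within a core class encode proteins that are close to identical, from similar coding sequences, and a probe set can read more copies than the symbol it carries. All levels below are log2 values after RMA, a method that corrects background and puts arrays on 1 scale, and levels of different probe sets are not set against each other. Changes are on the log2 scale, shXBP1 minus shCtrl where no other comparison is named, from limma, with the standard error (SE) and the Benjamini-Hochberg adjusted p over all genes. A gene was called changed at an adjusted p under 0.05. In bulk RNA, fewer cells that express a gene and less RNA per cell cannot be told apart.

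The promoters of 43 of the 50 genes were found in the RefSeq table of the GRCh38.p14 build, each from 250 bases before the start to 50 bases after it. They were searched on both strands for 5 motifs, none of which contains another: CCAAT, the TATA box TATAAA, the octamer ATTTGCAT, the H1 box AAACACA and TGACGTG, a sequence that XBP1 is known to bind. CCAAT stood in 37 of the 43 (86.0%), against 35.7% of all 27305 promoters, and TATAAA stood in 28 (65.1%), against 12.0%. By class, CCAAT was found in 8 of 9 H1, 8 of 8 H2A, 13 of 13 H2B and 6 of 6 H3 promoters. Of the 7 H4 promoters 2 (28.6%) had it, near the share of all promoters. The octamer, known from H2B genes and read by OCT1, stood in 16 (37.2%), against 1.8% of all promoters. It was found in 10 of 13 H2B and 6 of 8 H2A promoters and in 0 of the H1, H3 and H4 promoters. The H1 box was found in 7 of 9 H1 promoters and in 0 of the other classes, against 5.76% of all promoters. TGACGTG was found in 0 of the 43, against 2.0% of all promoters, which says only that these letters are not in these windows. The 150 bases before the start are shown for the H1 genes with the largest falls, for the pair of H2B genes called in opposite directions in the lines and for an H2A gene, with the motif matches in capitals. They lie at chr6:26156179-26156328, plus strand (H1-4), chr6:26056471-26056620, minus strand (H1-2), chr1:149886683-149886832, minus strand (H2BC21), chr6:26157971-26158120, plus strand (H2BC5) and chr6:26124022-26124171, plus strand (H2AC6), and each is written 5′ to 3′ towards its gene.
H1-4: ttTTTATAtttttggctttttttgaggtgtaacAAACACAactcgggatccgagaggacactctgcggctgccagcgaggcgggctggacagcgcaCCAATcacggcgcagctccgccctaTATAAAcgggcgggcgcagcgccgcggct
H1-2: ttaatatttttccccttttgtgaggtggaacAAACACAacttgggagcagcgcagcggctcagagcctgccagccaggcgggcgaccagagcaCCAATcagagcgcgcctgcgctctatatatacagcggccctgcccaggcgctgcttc
H2BC21: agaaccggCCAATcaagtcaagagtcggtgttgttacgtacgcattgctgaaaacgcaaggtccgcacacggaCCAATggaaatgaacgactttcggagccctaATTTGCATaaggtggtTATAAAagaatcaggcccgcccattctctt
H2BC5: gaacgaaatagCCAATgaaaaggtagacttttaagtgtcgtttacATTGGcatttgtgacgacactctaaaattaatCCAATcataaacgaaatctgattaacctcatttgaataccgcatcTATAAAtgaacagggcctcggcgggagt
H2AC6: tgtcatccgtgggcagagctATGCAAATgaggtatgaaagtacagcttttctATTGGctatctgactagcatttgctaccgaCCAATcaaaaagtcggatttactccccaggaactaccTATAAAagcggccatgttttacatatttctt
In the H1 pair the capitals mark AAACACA and, nearer the start, CCAAT, and H1-4 also has TATAAA on the minus strand 148 bases and on the plus strand 29 bases before its start. H2BC21 and H2AC6 each have CCAAT, the octamer and TATAAA, with the octamer of H2AC6 on the minus strand. H2BC5 has 3 matches to CCAAT and 1 to TATAAA, and no octamer match in this window.

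The knocked-down gene was lower in both lines. XBP1 read 7.52 and 7.16 on the shXBP1 arrays, against 12.41 and 12.56 on the shCtrl arrays in T47D, a change of -5.15 (SE 0.17, adjusted p = 8.68e-06). The MDA-MB-231 values were 7.13 and 6.69 on the shXBP1 arrays, against 10.83 and 10.69 on the shCtrl arrays, a change of -3.85 (SE 0.17, adjusted p = 6.93e-05). Replicate arrays correlated at 0.996 to 0.998 across genes, array medians lay between 5.87 and 5.91, and the 3′ to 5′ gap of the control probe sets was 0.89 to 1.30 for ACTB and 0.16 to 0.33 for GAPDH. Of the line markers, GATA3 and CDH1 marked T47D and VIM and CAV1 marked MDA-MB-231 in every array, while SPARC was at or below 6.25 in both lines. The mean level of 3 leukocyte genes was 4.97 to 5.43 over the 8 arrays and that of 5 fibroblast genes 5.82 to 6.06, with COL1A1 the exception at 8.97 to 10.21. COL1A1 changed by 0.70 (SE 0.18, adjusted p = 0.0223) in T47D, and its part in the histone results was not tested. A second, dim XBP1 probe set had values of -0.23 in T47D and 0.19 in MDA-MB-231. The table holds no detection calls, precision is limited by the number of arrays, and a probe set around or below 5.96, the median over all of them, was read as dim. RMA compresses folds against dim levels.

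In T47D, genes of all 5 histone classes were called lower with shXBP1. Of the 50 genes, 23 (46%) were called lower and 0 higher, while 13.5% of all genes were called lower and 15.5% higher. The median change over the 50 was -0.39, beside -0.02 over all genes tested. In 31 genes both shXBP1 arrays lay below both shCtrl arrays, in 2 both lay above, and in 17 the groups overlapped, while 33.0% of all genes had both arrays below and 31.1% both above. In MDA-MB-231, 3 (6%) were called higher and 3 (6%) lower, beside 10.6% higher and 6.68% lower over all genes. The share called lower was thus close to that of all genes, and the share called higher was below it. The median change was 0.05, beside 0.03 over all genes. The lowest change was -2.52 (H1-2) in T47D and -2.16 (H1-4) in MDA-MB-231, and the highest change in MDA-MB-231 was 1.21 (H2BC21).

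**Figure D1:**
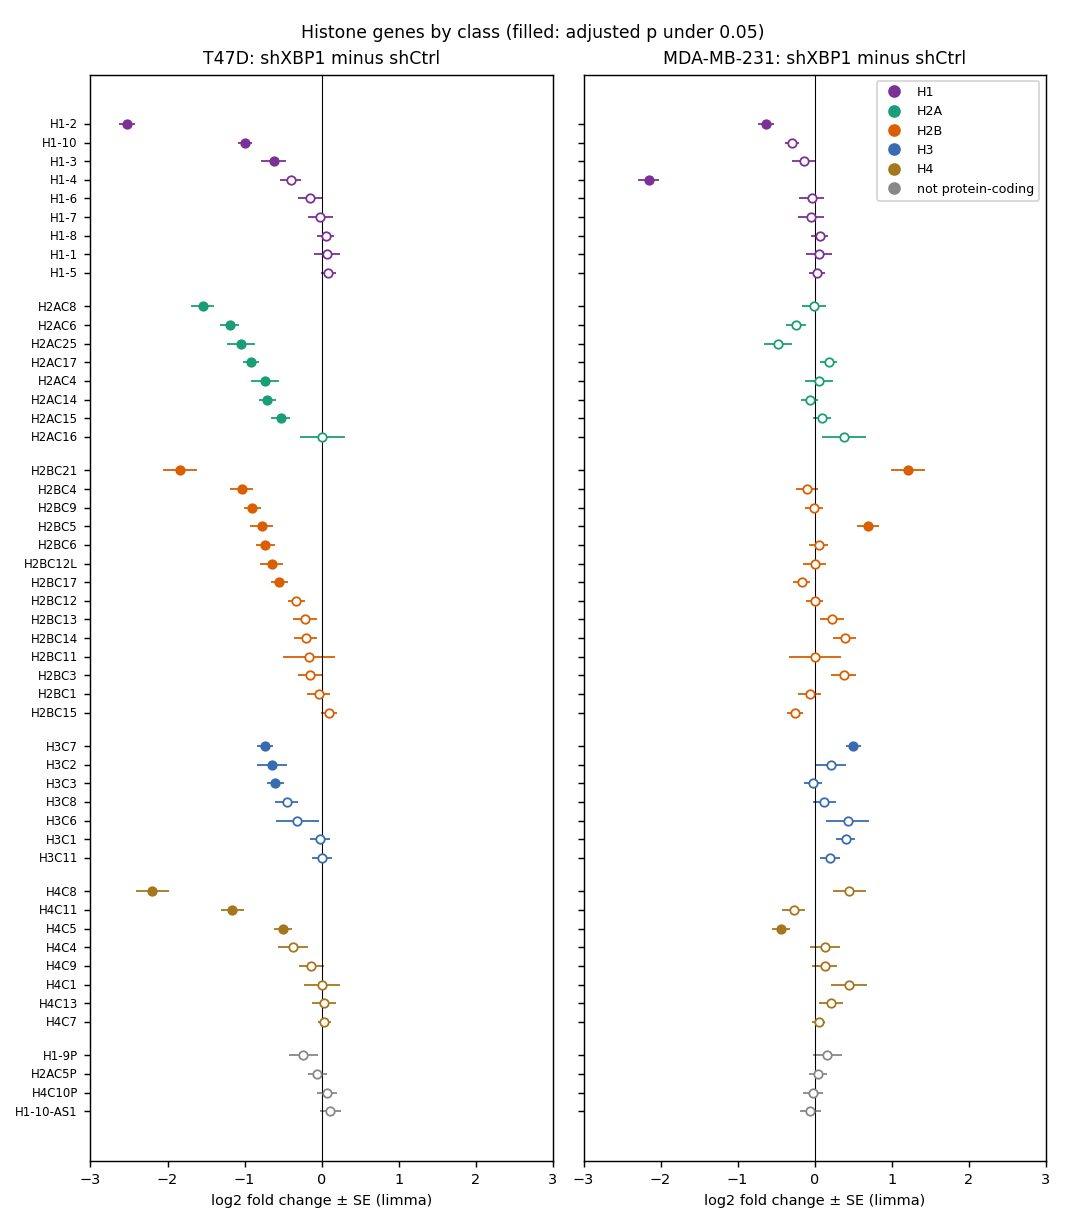
Log2 fold change (x axis, ± SE from limma) of shXBP1 against shCtrl for each of the 50 genes, grouped by histone class and ordered within a class by the T47D value. Filled points have an adjusted p under 0.05. In T47D (left) the 23 filled points all lie below 0, and in MDA-MB-231 (right) 3 lie above 0 and 3 below.

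Among the linker histones, H1-2 and H1-4 fell furthest, each in a different line. H1-2, one of the somatic H1 subtypes, read 9.24 and 9.12 on the shXBP1 arrays, against 11.63 and 11.77 on the shCtrl arrays in T47D. Its groups were far apart, and the change was -2.52 (SE 0.10, adjusted p = 1.28e-05), or 5.74-fold lower. Its MDA-MB-231 values were 10.37 and 10.20 on the shXBP1 arrays, against 10.96 and 10.89 on the shCtrl arrays. The fall there was smaller, -0.64 (SE 0.10, adjusted p = 0.00544), and the effects in the lines differed by 1.88 (SE 0.15, adjusted p = 0.000253) for MDA-MB-231 minus T47D.

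H1-4, another somatic subtype, showed the reverse order of the lines. For MDA-MB-231 it read 6.28 and 6.59 on the shXBP1 arrays, against 8.50 and 8.68 on the shCtrl arrays, with means of 6.43 ± 0.22 and 8.59 ± 0.13 (SD, n = 2 each). The change was -2.16 (SE 0.13, adjusted p = 0.000155), or 4.45-fold lower. In T47D it read 5.65 and 5.63 on the shXBP1 arrays, against 5.94 and 6.15 on the shCtrl arrays, all near the dim level. The groups did not overlap there, but the change of -0.40 was not called (SE 0.13, adjusted p = 0.0567). The difference between the effects was -1.75 (SE 0.19, adjusted p = 0.000694), and H1-4 was the only one of the 50 called lower in that contrast. Relative to T47D, its level in MDA-MB-231 was higher by 0.79 with shXBP1 and by 2.55 with shCtrl.

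Of the other 7 H1 genes, 2 were called lower in T47D. H1-10, a replication-independent subtype whose mRNA has a poly(A) tail, read 9.74 and 9.91 on the shXBP1 arrays, against 10.81 and 10.83 on the shCtrl arrays, a change of -0.99 (SE 0.09, adjusted p = 0.000199). In MDA-MB-231 it read 10.63 and 10.56 on the shXBP1 arrays, against 10.90 and 10.87 on the shCtrl arrays, and its change of -0.29 was not called (adjusted p = 0.0678). H1-3 changed by -0.62 (SE 0.16, adjusted p = 0.0216) in T47D. H1-1, H1-5, H1-6, H1-7 and H1-8 were not called in either line, with changes between -0.15 and 0.09 in T47D and between -0.05 and 0.06 in MDA-MB-231. H1-6, H1-7 and H1-8 are germ-cell subtypes, of testis (H1-6 and H1-7) and oocyte (H1-8).

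Of the 8 H2A genes, 7 were called lower in T47D and 0 changed in MDA-MB-231. H2AC8 read 8.19 and 7.96 on the shXBP1 arrays, against 9.55 and 9.68 on the shCtrl arrays in T47D, a change of -1.55 (SE 0.15, adjusted p = 0.000276). The MDA-MB-231 values were 8.64 and 8.49 on the shXBP1 arrays, against 8.37 and 8.79 on the shCtrl arrays, and the groups overlapped, with a change of -0.01 (adjusted p = 0.973). The effects differed by 1.53 (SE 0.22, adjusted p = 0.00213). H2AC6, known for giving a polyadenylated mRNA in many cell types, read 9.34 and 9.36 on the shXBP1 arrays, against 10.47 and 10.61 on the shCtrl arrays in T47D, a change of -1.19 (SE 0.13, adjusted p = 0.000382). Its MDA-MB-231 values were 9.07 and 8.74 on the shXBP1 arrays, against 9.06 and 9.24 on the shCtrl arrays, a change of -0.25 that was not called (adjusted p = 0.253). The other H2A genes called lower in T47D were H2AC25 (-1.05), H2AC17 (-0.92), H2AC4 (-0.73), H2AC14 (-0.70) and H2AC15 (-0.53). H2AC15 was dim on every array. Second, dimmer single-symbol probe sets changed in T47D by -0.35 (H2AC25, adjusted p = 0.176) and -0.23 (H2AC15, adjusted p = 0.293). Neither was called in a limma fit of all single-symbol probe sets. H2AC16, dim on every array, had a change of 0.01. H2AC25 read 10.14 and 9.54 on the shXBP1 arrays, against 10.30 and 10.33 on the shCtrl arrays in MDA-MB-231, where its change of -0.48 had an adjusted p of 0.117.

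Of 14 H2B genes, 7 were called lower in T47D, and 2 of those 7, H2BC21 and H2BC5, were called higher in MDA-MB-231. H2BC21, a gene of the chromosome 1 cluster whose mRNA is known to be polyadenylated in differentiated cells, read 8.26 and 8.26 on the shXBP1 arrays, against 10.02 and 10.18 on the shCtrl arrays in T47D, a change of -1.84 (adjusted p = 0.000633, SE 0.22) or 3.58-fold lower. Its MDA-MB-231 values were 8.89 and 8.18 on the shXBP1 arrays, against 7.16 and 7.50 on the shCtrl arrays, a change of 1.21 (adjusted p = 0.00891, SE 0.22) or 2.31-fold higher. The 2 shXBP1 arrays of that line had an SD of 0.50, and without the first shCtrl array the change was 1.04 with an adjusted p of 0.0530. The effects differed by 3.05 (SE 0.31, adjusted p = 0.000576), the largest difference among the 50 genes.

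H2BC5 read 11.23 and 11.19 on the shXBP1 arrays, against 11.94 and 12.04 on the shCtrl arrays in T47D, a change of -0.78 (SE 0.15, adjusted p = 0.00554). For MDA-MB-231 it read 10.46 and 10.00 on the shXBP1 arrays, against 9.47 and 9.60 on the shCtrl arrays, a change of 0.69 (SE 0.15, adjusted p = 0.017). Its probe sets disagree in MDA-MB-231: a second single-symbol probe set had a change of -0.06 there and -1.12 in T47D, and the mean over both gave 0.32 in MDA-MB-231 (adjusted p = 0.159). That call was also lost when only the arrays compared were fitted (adjusted p = 0.0670) and without the first shCtrl array (adjusted p = 0.0840). H2BC4, in T47D, read 7.96 and 8.26 on the shXBP1 arrays, against 9.11 and 9.19 on the shCtrl arrays, a change of -1.04 (SE 0.15, adjusted p = 0.00139), while in MDA-MB-231 it was dim in both groups and its change was -0.10 (adjusted p = 0.717). The other H2B genes called lower in T47D were H2BC9 (-0.90), H2BC6 (-0.73), H2BC12L (-0.65) and H2BC17 (-0.55). H2BC17 was dim on every array. H2BC12 read 12.85 and 12.89 on the shXBP1 arrays, against 13.16 and 13.24 on the shCtrl arrays in T47D, and its change of -0.33 was not called (adjusted p = 0.059). H2BC1, H2BC3, H2BC11, H2BC13, H2BC14 and H2BC15 were not called in either line. H2BC1 is a testis form.

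Of the 7 H3 genes, 3 were called lower in T47D and 1 higher in MDA-MB-231, and that 1, H3C7, was among the 3. H3C7 read 4.04 and 4.15 on the shXBP1 arrays, against 4.82 and 4.83 on the shCtrl arrays in T47D, dim on all 4 arrays, a change of -0.74 (SE 0.10, adjusted p = 0.00121). In MDA-MB-231 it read 6.31 and 6.09 on the shXBP1 arrays, against 5.72 and 5.67 on the shCtrl arrays, around the median of all probe sets, a change of 0.50 (SE 0.10, adjusted p = 0.0135). The groups did not overlap in either line, and the effects differed by 1.24 (SE 0.14, adjusted p = 0.000925). The MDA-MB-231 call of H3C7 was lost when only the arrays compared were fitted (adjusted p = 0.0608), without the second shCtrl array (0.0589) and without the first shXBP1 array (0.0610). H3C2 (-0.64), dim on every T47D array, and H3C3 (-0.60) were called lower in T47D. H3C1, H3C6, H3C8 and H3C11 were not called in either line, with changes between -0.45 and 0.01 in T47D. A second, dim single-symbol probe set of H3C6, in a fit of all single-symbol probe sets, changed by 0.40 (adjusted p = 0.0216) in MDA-MB-231, with a difference of the effects of 0.62 (adjusted p = 0.0118).

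Of the 8 H4 genes, 3 were called lower in T47D and 1 in MDA-MB-231. H4C8 read 7.44 and 7.42 on the shXBP1 arrays, against 9.56 and 9.70 on the shCtrl arrays in T47D, a change of -2.20 (adjusted p = 0.00024, SE 0.21) or 4.59-fold lower, and a second single-symbol probe set gave -2.38. The MDA-MB-231 values were 6.72 and 6.60 on the shXBP1 arrays, against 5.83 and 6.58 on the shCtrl arrays. Those groups did not overlap, but the change of 0.45 was not called (adjusted p = 0.205), while the effects differed by 2.65 (SE 0.30, adjusted p = 0.000881). H4C11 read 6.88 and 7.25 on the shXBP1 arrays, against 8.24 and 8.21 on the shCtrl arrays in T47D, a change of -1.16 (SE 0.15, adjusted p = 0.000919). Its MDA-MB-231 values were 8.84 and 8.54 on the shXBP1 arrays, against 9.04 and 8.88 on the shCtrl arrays, a change of -0.27 (adjusted p = 0.28). H4C5 was called lower in both lines, with changes of -0.50 (SE 0.12, adjusted p = 0.0163) in T47D and -0.44 (SE 0.12, adjusted p = 0.0456) in MDA-MB-231, where it read 6.91 and 6.98 on the shXBP1 arrays, against 7.42 and 7.35 on the shCtrl arrays. The MDA-MB-231 call for H4C5 was lost in 9 of its alternatives, among them each one that left out an array of that line, with adjusted p up to 0.165. H4C1, H4C4, H4C7, H4C9 and H4C13 were not called in either line.

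**Figure D2:**
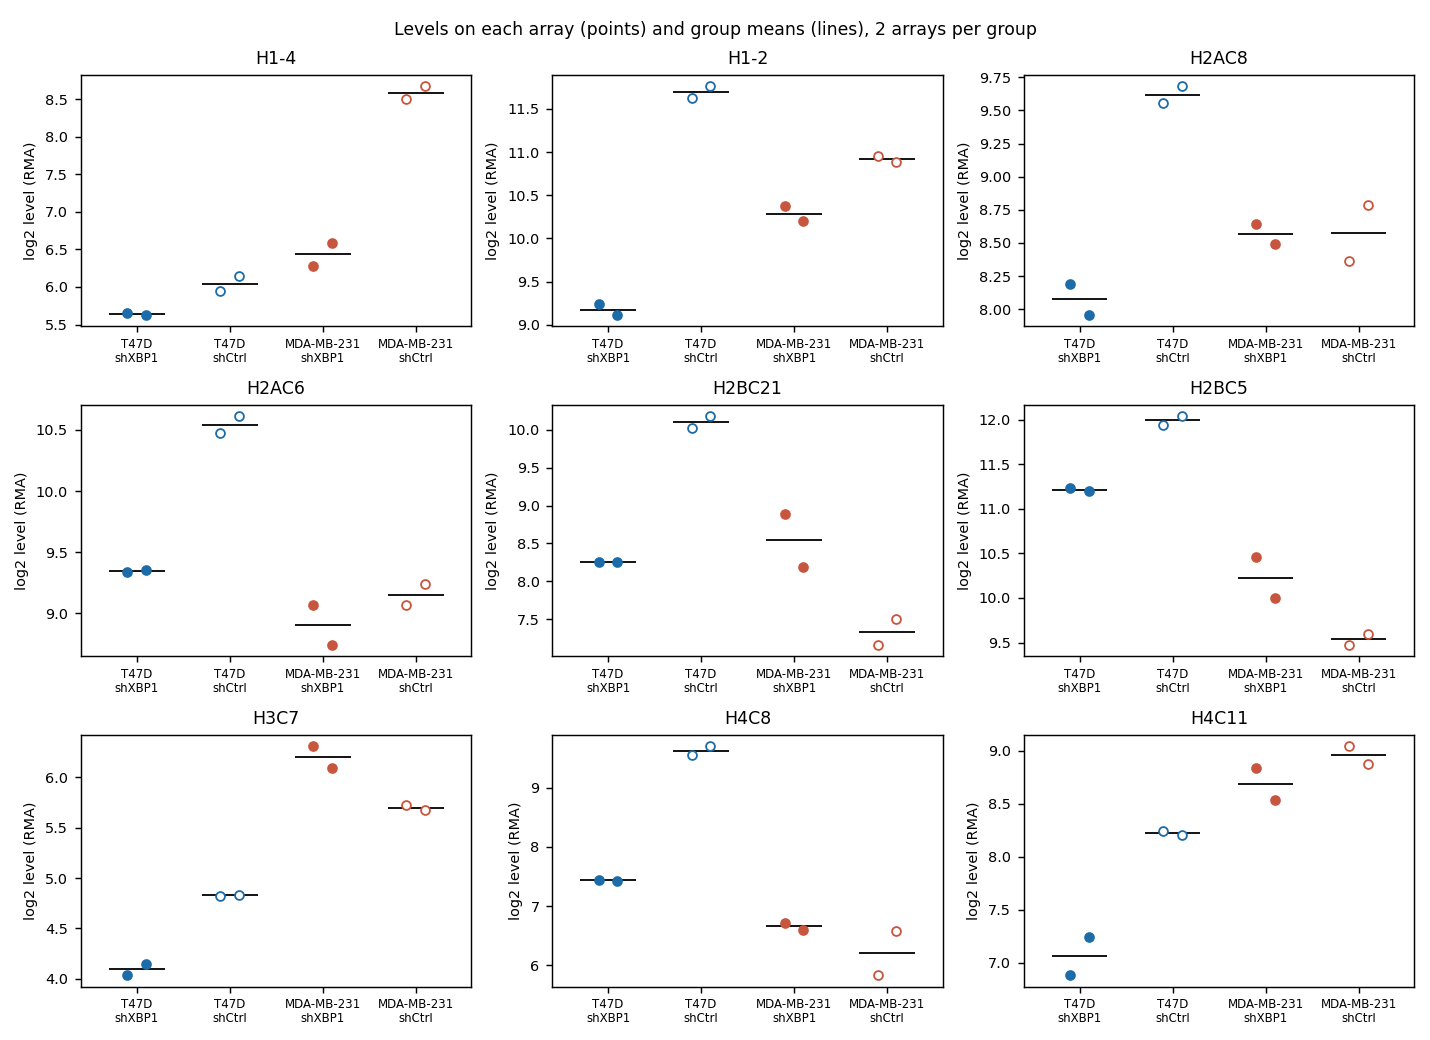
Log2 level (y axis, RMA) of 9 histone genes on each of the 8 arrays, with shXBP1 (filled) left of shCtrl (open) within each line, and the mean of the 2 arrays as a line. H1-4 lies furthest below its control in MDA-MB-231, H1-2 and H4C8 in T47D, and H2BC21 lies below its control in T47D and above it in MDA-MB-231.

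The 4 symbols that are not protein-coding, H1-10-AS1, H1-9P, H2AC5P and H4C10P, were not called in either line, with changes between -0.24 and 0.12 in T47D. H1-10-AS1 runs antisense to its partner H1-10, and its dim probe set had a value of 0.12 where H1-10 changed by -0.99. Calls were unevenly spread over the levels: of the 29 genes with a mean at or above 5.96, 20 were called lower in T47D, and of the 21 below it, 3 were. The share of all genes called lower on each side of 5.96 is not given here, so these counts cannot be set against it. The mean is over both lines, and H3C2 counts among the brighter genes though it was dim in T47D. The counts among the 50 also differed by type of probe set. Of the 38 genes read at a plain probe set, 12 were called lower in T47D, while of the 12 read at a probe set that the maker marks as matching several transcripts of a family or as prone to cross-hybridisation, 11 were (5 of 5 and 6 of 7). The share of all genes called lower by type of probe set is not given here either, so these counts cannot be set against it. The part of level and probe set type in the T47D result was not tested. By position, 42 of the 50 lie on chromosome 6, where 19 were called lower in T47D, with 14 of 26 in the first run of histone genes, 0 of 3 in the second and 5 of 13 in the third (runs were parted by gaps of over 500 kb). No share of all genes by position is given beside these counts. Of the genes with a promoter in the table, CCAAT stood in 18 of the 22 called lower in T47D and in 19 of the other 21, TATAAA in 15 and 13, and the octamer in 10 and 6.

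**Figure D3:**
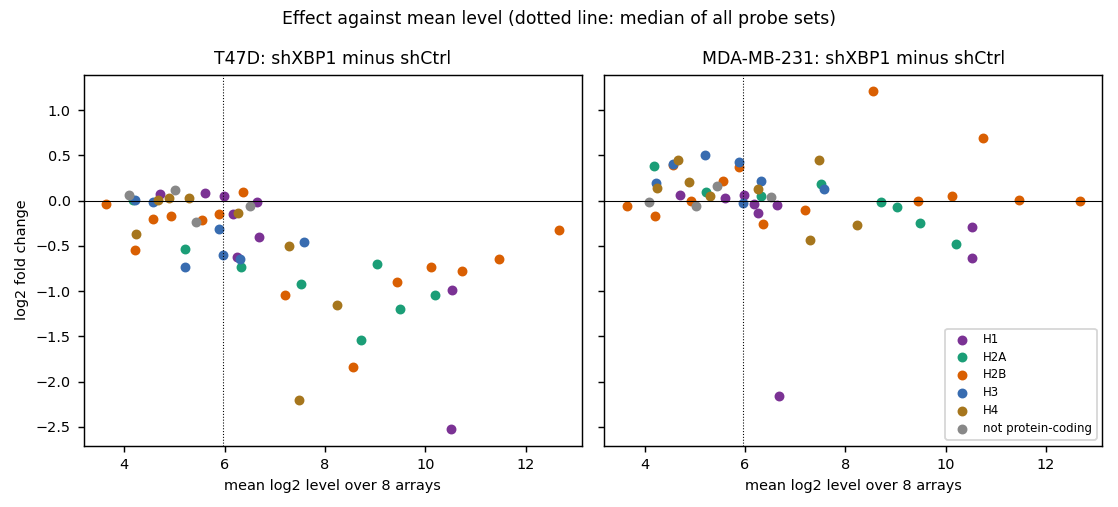
Log2 fold change of shXBP1 against shCtrl (y axis) by mean log2 level over the 8 arrays (x axis) for the 50 genes, coloured by class, in T47D (left) and MDA-MB-231 (right). The dotted line is the median of all probe sets, 5.96. In T47D 20 of the 29 genes right of it were called lower, and 3 of the 21 left of it.

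The effects of shXBP1 differed between the lines for 17 histone genes. The contrast of the effects (MDA-MB-231 minus T47D) was positive and called for 16 (32%) and negative for 1 (2%), H1-4, beside 13.0% and 11.8% of all genes. The median contrast was 0.49, beside 0.05 over all genes. This contrast uses the same arrays as both knockdown comparisons. Levels around or below 5.96, where folds are compressed, stand behind several of the called contrasts. Among them are H2BC4 and H3C3 in MDA-MB-231, H1-4 and H3C7 in T47D, and H2AC15 in both lines. By size the positive ones were led by H2BC21 (3.05), H4C8 (2.65), H1-2 (1.88), H2AC8 (1.53), H2BC5 (1.47) and H3C7 (1.24). Of the 50, only H2BC21, H2BC5 and H3C7 were called in opposite directions in the lines, and the MDA-MB-231 call of each was lost in 1 to 3 alternatives.

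A further 20 probe sets carry several histone symbols and cannot be given to 1 gene: 6 for H4, 5 for H2B, 5 for H2A, 2 for H3 alone and 2 for H3 with H2AC7. They hold the only reading of 19 of the 74 protein-coding genes that RefSeq lists under these names, 9 more have no probe set in the annotation used, and 21 of the 50 symbols also stand on at least 1 of them. Several of the 20 carry the same list of symbols, so they are not 20 readings of different genes. In a fit that kept probe sets with several symbols, 16 of the 20 were called lower and 0 higher in T47D. Their median change was -1.11, and 13.6% of all features of that fit were called lower and 15.3% higher. In MDA-MB-231 4 were called higher and 1 lower, beside 10.4% and 6.72%, with a median of 0.05. The contrast of the effects was called positive for 15 and negative for 0, beside 13.0% and 11.6%, with a median of 1.03.

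The largest opposite change was on a probe set for H2BC11 and H2BC8. It read 6.20 and 6.34 on the shXBP1 arrays, against 8.61 and 8.65 on the shCtrl arrays in T47D, a change of -2.36 (adjusted p = 1.08e-05, SE 0.09) or 5.14-fold lower. Its MDA-MB-231 values were 9.31 and 9.22 on the shXBP1 arrays, against 6.79 and 6.74 on the shCtrl arrays, a change of 2.50 (adjusted p = 3.35e-05, SE 0.09) or 5.66-fold higher, and the effects differed by 4.86 (SE 0.13, adjusted p = 1.55e-05). A second probe set with the same symbols went the same ways, by -1.61 in T47D and 0.66 in MDA-MB-231. The single-symbol probe set of H2BC11 was dim in both lines and had changes of -0.17 and 0.00, neither called. Which copy the shared signal comes from cannot be told apart here.

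Of the 4 probe sets with several H3 symbols or with H3 and H2AC7, 3 were called lower in T47D, and 2 of those were called higher in MDA-MB-231. A probe set for 10 H3 genes and H2AC7 read 7.22 and 7.25 on the shXBP1 arrays, against 9.03 and 9.17 on the shCtrl arrays in T47D, a change of -1.86 (SE 0.13, adjusted p = 8.24e-05). For MDA-MB-231 it read 8.63 and 8.30 on the shXBP1 arrays, against 7.15 and 7.38 on the shCtrl arrays, a change of 1.20 (SE 0.13, adjusted p = 0.00119). A probe set for the 10 H3 genes alone changed by -1.81 in T47D and 1.13 in MDA-MB-231, both called. Of the 5 shared H2A probe sets 4 were called lower in T47D, and of the 6 shared H4 probe sets 4 were, with 0 called higher in MDA-MB-231 in either class. A probe set for H2AC18 and H2AC19 read 11.62 and 11.63 on the shXBP1 arrays, against 13.45 and 13.59 on the shCtrl arrays in T47D. The change was -1.90 (SE 0.10, adjusted p = 2.34e-05), and the value in MDA-MB-231 was -0.31 (adjusted p = 0.0668). Another with the same symbols changed by -1.88 (adjusted p = 1.65e-05) in T47D and by -0.31 (SE 0.08, adjusted p = 0.0419) in MDA-MB-231. It was the only shared probe set called lower in MDA-MB-231. A dimmer probe set of the same pair changed by -0.72 (adjusted p = 0.0157) in T47D. Its MDA-MB-231 value of -0.19 was not called (adjusted p = 0.523). One for 14 H4 genes read 11.82 and 11.87 on the shXBP1 arrays, against 12.86 and 12.96 on the shCtrl arrays in T47D, a change of -1.07 (SE 0.09, adjusted p = 0.000135), and had a value of -0.17 in MDA-MB-231 (adjusted p = 0.236).

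**Figure D4:**
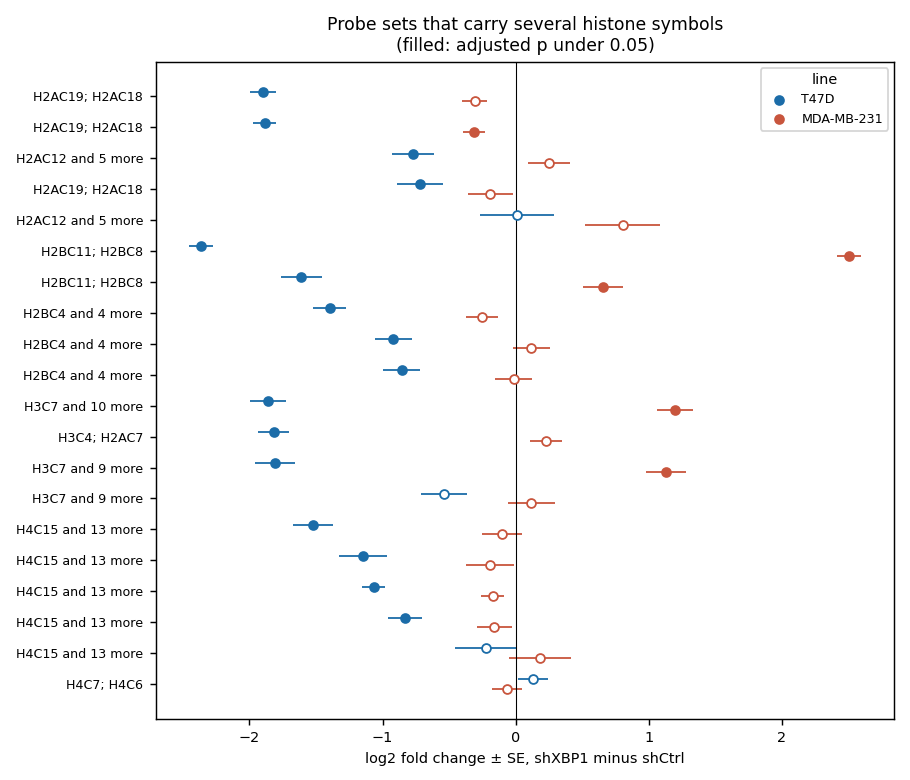
Log2 fold change (x axis, ± SE) of shXBP1 against shCtrl for the 20 probe sets that carry several histone symbols, in T47D (blue) and MDA-MB-231 (red), with filled points at an adjusted p under 0.05. In T47D 16 are filled and lie below 0. In MDA-MB-231 4 filled points lie above 0, all of H2B and H3 probe sets, and 1, of an H2A probe set, lies below 0.

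Between the lines, more histone genes were called higher than lower in MDA-MB-231 with shXBP1, and fewer with shCtrl. With shXBP1, 18 genes (36%) were called higher and 7 (14%) lower in MDA-MB-231 than in T47D, beside 25.9% and 25.0% of all genes. With shCtrl, 7 (14%) were called higher and 16 (32%) lower, beside 23.7% and 25.2%. The median difference was 0.23 with shXBP1 and -0.07 with shCtrl, beside 0.06 and 0.01 over all genes. These comparisons share arrays with the knockdown comparisons, so the shift between them is the contrast of effects above and not separate evidence. Levels around or below 5.96 in 1 or both lines stand behind several called differences (H3C2 and H3C7 in T47D, H2BC4 and H3C6 in MDA-MB-231, H1-4 in T47D, H2BC11 in both lines), so the sizes are not an order. On the shXBP1 arrays the called differences included H3C2 (3.13, SE 0.19, adjusted p = 4.09e-06), H3C7 (2.11, SE 0.10, adjusted p = 1.04e-06), H2AC17 (1.85, SE 0.11, adjusted p = 2.64e-06) and H4C11 (1.62, SE 0.15, adjusted p = 3.85e-05) higher in MDA-MB-231, and H2BC4 (-2.38, SE 0.15, adjusted p = 3.93e-06), H3C6 (-2.23, SE 0.28, adjusted p = 0.000232), H2BC5 (-0.99, SE 0.15, adjusted p = 0.000647) and H4C8 (-0.78, SE 0.21, adjusted p = 0.0161) lower there. On the shCtrl arrays they included H1-4 (2.55, SE 0.13, adjusted p = 1.73e-06), H3C2 (2.27, SE 0.19, adjusted p = 2.69e-05), H2BC11 (0.96, SE 0.34, adjusted p = 0.046) and H3C7 (0.87, SE 0.10, adjusted p = 0.000161) higher in MDA-MB-231, and H4C8 (-3.43, SE 0.21, adjusted p = 4.47e-06), H2BC4 (-3.32, SE 0.15, adjusted p = 7.78e-07), H3C6 (-2.98, SE 0.28, adjusted p = 4.56e-05) and H2BC21 (-2.77, SE 0.22, adjusted p = 1.77e-05) lower there. H3C2 read 7.92 and 7.63 in MDA-MB-231 shXBP1 arrays and 4.80 and 4.48 in T47D shXBP1 arrays, and H3C6 read 4.66 and 4.93 in MDA-MB-231 shXBP1 arrays and 6.86 and 7.19 in T47D shXBP1 arrays. Its probe sets disagree: a second single-symbol probe set of H3C6, dim on all 8 arrays, had a difference of -0.06 (adjusted p = 0.654) with shXBP1 and -0.68 (adjusted p = 0.000369) with shCtrl, in a fit of all single-symbol probe sets, and the mean over both gave -1.14 and -1.83. H2BC11 on the shCtrl arrays lost its call in 6 alternatives, and H4C8 on the shXBP1 arrays in 4.

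**Figure D5:**
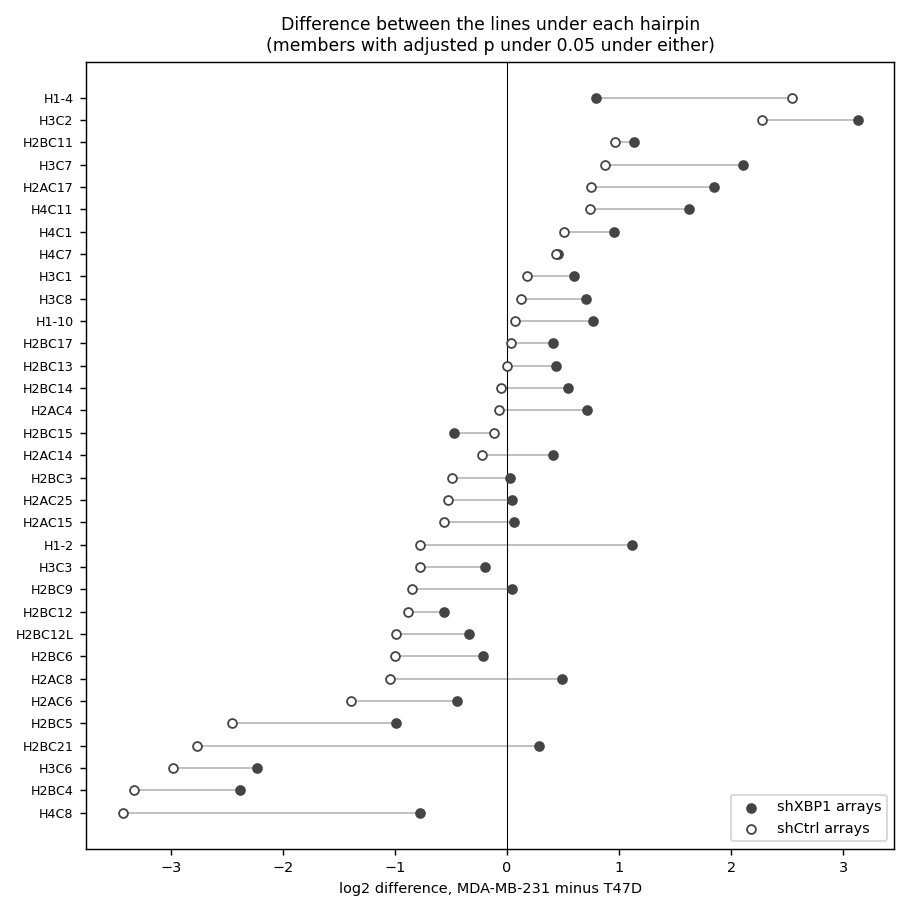
Log2 difference of MDA-MB-231 minus T47D (x axis) under shXBP1 (filled) and under shCtrl (open) for the histone genes called in either comparison. H4C8, H2BC21 and H1-2 lie further to the right under shXBP1 than under shCtrl, and H1-4 lies further to the left.

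Genes that supply or handle histones were read beside the 50. Among replication-independent variant histones, 8 of 10 were measured: 1 was called higher and 3 lower in T47D, and 3 were called higher and 1 lower in MDA-MB-231. Of all genes, 15.5% were called higher and 13.5% lower in T47D, and 10.6% and 6.68% in MDA-MB-231. H2AX, the H2A variant phosphorylated at DNA breaks, read 9.05 and 9.13 on the shXBP1 arrays, against 7.77 and 7.81 on the shCtrl arrays in T47D, a change of 1.30 (SE 0.12, adjusted p = 0.000184), and 10.03 and 9.70 on the shXBP1 arrays, against 8.71 and 8.79 on the shCtrl arrays in MDA-MB-231, a change of 1.11 (SE 0.12, adjusted p = 0.000939). Its 3 dimmer probe sets had changes of -0.07 to 0.10 in T47D and -0.27 to 0.34 in MDA-MB-231. MACROH2A1, a macroH2A found on inactive chromatin, changed by -0.64 (SE 0.08, adjusted p = 0.000795) in T47D and -0.42 (SE 0.08, adjusted p = 0.0104) in MDA-MB-231, but 2 of its other 6 probe sets had values of 0.71 in T47D. CENPA, the centromeric H3, changed by -0.58 (SE 0.09, adjusted p = 0.00253) in T47D and 0.34 (SE 0.09, adjusted p = 0.0446) in MDA-MB-231. H3-3A, a replacement H3, was called in MDA-MB-231 only, at 0.92 (SE 0.09, adjusted p = 0.000704), with -0.25 in T47D. The contrast of those effects was 1.17 (SE 0.13, adjusted p = 0.000763). H3-4, a testis H3 that the name pattern leaves out, had changes of -0.27 and 0.15, not called.

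Of 15 genes for histone transcription and 3′ end processing, 6 were called higher and 2 lower in T47D, and 3 higher and 2 lower in MDA-MB-231, beside 15.5% and 13.5% of all genes in T47D and 10.6% and 6.68% in MDA-MB-231. In T47D the largest rises were ZNF473 (0.70, SE 0.09, adjusted p = 0.00104), a component of the U7 processing complex, NCBP1 (0.67, SE 0.09, adjusted p = 0.00129), the large cap-binding subunit, CASP8AP2 (0.60, SE 0.09, adjusted p = 0.00167) and NPAT (0.55, SE 0.10, adjusted p = 0.00401), both factors of histone locus bodies. NCBP1 was also called higher in MDA-MB-231 (0.72, SE 0.09, adjusted p = 0.00223). CSTF2, a cleavage factor, changed by -0.45 (SE 0.09, adjusted p = 0.00543) in T47D and by 0.49 (SE 0.09, adjusted p = 0.0075) in MDA-MB-231. ERI1, the exonuclease that trims histone mRNA ends, changed by 0.46 (SE 0.12, adjusted p = 0.0196) in T47D and by -0.41 (SE 0.12, adjusted p = 0.0493) in MDA-MB-231. CPSF3, the endonuclease subunit, changed by 0.40 (SE 0.08, adjusted p = 0.0155) in MDA-MB-231. SLBP itself was not called in T47D (0.16, adjusted p = 0.235) and fell in MDA-MB-231 (-0.31, adjusted p = 0.0484).

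Of 18 histone chaperones and assembly genes, 3 were called higher and 8 lower in T47D, and 6 higher and 2 lower in MDA-MB-231, where 10.6% of all genes were called higher and 6.68% lower, as 15.5% and 13.5% were in T47D. In T47D the largest changes were ANP32E (-0.83, SE 0.10, adjusted p = 0.000552), which removes H2A.Z, ASF1B (-0.70, SE 0.09, adjusted p = 0.000803) and ASF1A (0.58, SE 0.12, adjusted p = 0.00755), H3-H4 chaperones, and NAP1L4 (0.54, SE 0.08, adjusted p = 0.00208), an H2A-H2B chaperone. In MDA-MB-231 they were UBN1 (-1.24, SE 0.17, adjusted p = 0.00299), a subunit of the HIRA complex, ASF1A (0.76, SE 0.12, adjusted p = 0.00447), HJURP (0.65, SE 0.09, adjusted p = 0.00277), the CENPA chaperone, and SUPT16H (0.58, SE 0.10, adjusted p = 0.00602), a FACT subunit. A second probe set of UBN1 had a change of -0.28 in MDA-MB-231. The other 6 called lower in T47D were RBBP4 (-0.44), CHAF1A (-0.44), HJURP (-0.42), SSRP1 (-0.35), CHAF1B (-0.35) and NASP (-0.32).

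Genes of S phase and DNA replication were also lower in T47D. Of the 23 measured (of 24 listed), 20 were called lower and 0 higher in T47D, beside 13.5% and 15.5% of all genes. Their median change there was -0.63. In MDA-MB-231 3 were called higher and 1 lower, beside 10.6% and 6.68% of all genes, with a median of -0.11. The mean level of the list was 9.42 and 9.46 on the T47D shXBP1 arrays, against 10.12 and 10.11 on the T47D shCtrl arrays, and 10.78 and 10.77 on the MDA-MB-231 shXBP1 arrays, against 10.80 and 10.83 on the MDA-MB-231 shCtrl arrays. RRM2, a subunit of ribonucleotide reductase, had the largest fall in T47D, -2.01 (SE 0.09, adjusted p = 1.37e-05), followed by the licensing factor CDC6 (-1.37, SE 0.11, adjusted p = 0.000104) and the helicase subunits MCM3 (-1.15, SE 0.09, adjusted p = 8.33e-05) and MCM6 (-1.12, SE 0.08, adjusted p = 7.22e-05). In MDA-MB-231 the called ones were E2F8 (0.89, SE 0.13, adjusted p = 0.00307), CCNE2 (-0.73, SE 0.13, adjusted p = 0.00857), CCNA2 (0.40, SE 0.10, adjusted p = 0.0374) and RRM2 (0.34, SE 0.09, adjusted p = 0.0351). The part of these genes in the histone result was not tested.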

How the data were processed

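RNA from 8 samples, 2 per group, was hybridised to Affymetrix arrays with 54675 probe sets. Log2 expression values were deposited as 1 table. Per the submitters' processing notes they were made with RMA and the affy package, version 1.30.0. The sources used here do not say which arrays were normalized jointly. The values ran from 2.75 to 15.6 and were used as deposited. Of the probe sets, 41091 carried 1 symbol and 1801 several. For each of 19775 genes the single-symbol probe set with the top mean was taken, with no filter on dim genes. The 4 group means were fitted together with limma 3.58.1 in R 4.3.3 (lmFit and eBayes, 7.61 total degrees of freedom), and tests were two-sided with Benjamini-Hochberg adjustment over all genes. For 2 arrays against 2, the smallest exact permutation p is 0.333.

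The histone genes, gene lists and settings were chosen with earlier results of these data known. Named genes were H1-4, up to 6 called histone genes each way per knockdown comparison and for their difference, up to 4 each way between lines, and up to 4 called genes per list. Symbols H2AW, H2BU1 and H4-16 of a planned list are older symbols not read separately here. Same-numbered arrays of different groups deviated together at correlations of -0.07 to 0.04, so the numbers were not taken to pair samples. Alternatives were a replicate block, only the arrays compared, other probe set rules, filters on dim genes, repeated quantile normalization, trended and robust moderation, and each array left out.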

Additional observations from a re-analysis of the deposited data

Results flagged for a closer look

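The effect of shXBP1 on 17 histone genes differed between the lines by limma's test of the difference itself (MDA-MB-231 effect minus T47D effect, log2, adjusted p over all genes). H2BC21 (3.05, adjusted p = 0.000576), H4C8 (2.65, adjusted p = 0.000881) and H1-2 (1.88, adjusted p = 0.000253) stood furthest apart on the positive side, followed by H2AC8 (1.53), H2BC5 (1.47), H3C7 (1.24) and H2AC17 (1.10). The others were H2AC6 (0.95), H2BC4 (0.94), H2BC9 (0.89), H4C11 (0.89), H2BC6 (0.78), H1-10 (0.70), H2AC14 (0.64), H2AC15 (0.63) and H3C3 (0.58). A second, dimmer probe set of H2AC15 had a difference of 0.07, not called in a limma fit of all single-symbol probe sets (adjusted p = 0.853). H1-4 was the only gene of the 50 called on the negative side (-1.75, adjusted p = 0.000694). Its T47D levels were near the dim level, which limits how far a fall could be read there. The same holds for H2BC4 and H3C3 in MDA-MB-231 and for H2AC15 in both lines. For 3 further genes every shXBP1 array lay below every shCtrl array in T47D and above in MDA-MB-231, but the test of the difference was not past the threshold: H2BC14 (0.60, adjusted p = 0.0768), H2BC3 (0.52, adjusted p = 0.145) and H3C2 (0.86, adjusted p = 0.0585). In T47D alone, 33.0% of all genes had both shXBP1 arrays below both shCtrl arrays. The share of all genes with opposite patterns in the lines is not given here, so these 3 cannot be set against it.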

How the results depend on the processing

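The comparisons named 23 changed histone genes in T47D, 6 in MDA-MB-231, 17 for the difference of the effects, 23 between lines with shCtrl and 25 with shXBP1. With plain probe sets only, the counts were 13, 3, 9, 15 and 18, from fewer genes tested. With the 20 several-symbol histone probe sets kept as features beside the 50 genes, the counts were 39, 11, 32, 36 and 36. Several of those 20 carry the same list of symbols. Using only the arrays compared gave 3 in MDA-MB-231. With a replicate block they were 23, 5, 16, 23 and 25, of which 22, 5, 16, 22 and 24 were calls shared with the fit without it. Among the named fold changes the block took away the MDA-MB-231 call of H4C5 (adjusted p = 0.0942) and the shCtrl line call of H2BC11 (adjusted p = 0.0531). Leaving out each array gave 17 to 24 in T47D, 4 to 7 in MDA-MB-231, 12 to 21 for the difference, 20 to 24 between lines with shCtrl and 17 to 26 with shXBP1. The fewest T47D calls came without shXBP1 replicate 1 and the fewest MDA-MB-231 calls without shCtrl replicate 1. Of 568 alternative values for 35 fold changes of 15 named genes, 542 kept direction and call, 26 lost the call and 0 changed direction. Many alternatives could not change the direction, because they leave the group means compared as they were. Among these are the replicate block, the filters on dim genes and leaving out an array outside the comparison. The lost calls were H4C5 in MDA-MB-231 (9 settings), H2BC11 with shCtrl between lines (6), H4C8 with shXBP1 between lines (4), H2BC5 (3), H3C7 (3) and H2BC21 (1) in MDA-MB-231. The mean over probe sets moved H2BC5 in MDA-MB-231 to 0.32 and H3C6 between lines to -1.14 (shXBP1) and -1.83 (shCtrl), over 1.5 times. The cause was not tested. Dim signal limits what can be read for the 21 histone genes with a mean under 5.96.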
